A study of Homo sapiens with 16 samples.

Results

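The values described here ask of each gene whether its response to OTUD5 knockdown differed between 2 Rpn10 genotypes of HCT116 cells, a long-established line from a human colon carcinoma. Unedited cells (WT) and cells edited to make a shortened Rpn10 without its ubiquitin interacting motif (truncation) were transfected with RNAiMAX and either a scrambled control siRNA (scramble) or a mix of 4 siRNAs to OTUD5 (knockdown), at 50 nM for 48 hours. RNA sequencing gave 4 libraries in each of the 4 groups (WT scramble, WT knockdown, truncation scramble and truncation knockdown), and all 16 libraries of the series were used. The labels do not say whether the truncation line is a single clone, so an effect of the edit and one of a clone cannot be told apart. The interaction of a gene is its log2 change from scramble to knockdown in truncation cells minus the same change in WT cells. A value below 0 means a deeper fall, a smaller rise or a fall in place of a rise in truncation cells. Interactions, knockdown effects and responses named higher or lower below are meant with their sign, not as the size of the change. It was computed for all 17104 genes, of 60668 listed, that passed the low count filter.

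OTUD5 is a deubiquitinase of the OTU family, an enzyme that removes ubiquitin chains from proteins and so can spare them from degradation. Rpn10, encoded by PSMD4, sits in the 19S particle of the proteasome and uses its ubiquitin interacting motif to hold ubiquitylated substrates. The comparison therefore joins a change in chain removal with a change in a proteasomal chain receptor.

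Each library held 28777244 to 29645663 counts. In WT knockdown replicate 3 at least 1 read was counted for 32264 genes (25626 to 27765 elsewhere), and WT knockdown replicate 2 stood farthest from its own group, at up to 20.8 as chi-square per degree of freedom against another replicate. WT scramble replicate 4 held 326 counts of the leukocyte gene PTPRC, against 1 to 25 in the others, and the summed level of 5 immune markers spanned 0.415 to 14.6 CPM (counts scaled to a fixed library total) in WT scramble libraries and at most 2.82 elsewhere. Of 12 colon epithelial markers, EPCAM, CDH1, KRT8, KRT18, KRT19 and CDX2 were expressed in every library, while VIL1, CDX1, CDH17, LGALS4 and CEACAM5 stayed under 1 CPM. The parts of these libraries and traces in the results below were not tested beyond the fits that left each library out.

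As a check of the siRNA labels, the level of the targeted gene OTUD5 (ENSG00000068308, chromosome X, 48922028 to 48958386) stood at 90.4, 88.1, 83.7 and 90.9 CPM in the WT scramble libraries and at 19.2, 17.4, 21.8 and 22.1 in WT knockdown. The truncation scramble libraries held 93.8, 90.3, 95.9 and 95.1 CPM and the truncation knockdown libraries 19.9, 19.4, 22.5 and 22.1. In both genotypes every knockdown library lay below every scramble library. The log2 knockdown effect was -2.13 ± 0.069 (standard error, SE, as after every ± below unless named) in WT cells and -2.16 ± 0.069 in truncation cells, and their difference of -0.027 ± 0.10 was not called (adjusted p = 0.912, edgeR's quasi-likelihood test with Benjamini-Hochberg adjustment, as for every adjusted p below). The sign of that difference turned under 2 of 24 alternative fits.

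The gene of the receptor, PSMD4 (ENSG00000159352, chromosome 1, 151254703 to 151267479), did respond differently. In WT cells it stood at 236, 228, 225 and 255 CPM with scramble and 255, 276, 236 and 288 with knockdown. In truncation cells the values were 195, 203, 196 and 205 with scramble and 340.2, 338, 309 and 313 with knockdown. The truncation libraries separated fully by siRNA, whereas the WT ranges overlapped. A rise was called in both genotypes, at 0.16 ± 0.059 in WT (adjusted p = 0.0267) and 0.70 ± 0.059 in truncation cells on the log2 scale. The interaction was 0.54 ± 0.084 (adjusted p = 0.000347) and kept its call in all 24 alternative fits. These counts cover the whole gene and do not show the missing part of the transcript.

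Across the transcriptome, 974 of 17104 genes were called at an adjusted p under 0.05 for the interaction, which is 5.69%. Of these, 350 (2.05% of the tested genes) had a higher and 624 (3.65%) a lower knockdown effect in truncation cells. At least a 2-fold difference was seen in 116 genes (0.678%), 80 higher (0.468%) and 36 lower (0.21%). The split of calls depended on scaling, since 35.9% of called genes were higher with the TMM scaling used here and 55.8% (502 higher, 397 lower) with upper-quartile scaling, which moved the median interaction of all genes from -0.013 to 0.037. Leaving out WT knockdown replicate 2 raised the calls to 1661, of which 959 were among the 974. Leaving out WT scramble replicate 4, the library with the leukocyte trace, gave 898 calls (321 higher, 577 lower). None of the 974 genes changed sign in any of the 24 alternative fits that kept it, and some filters dropped genes of low level.

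The knockdown itself changed far more genes than its interaction with genotype. It was called for 8604 genes (50.3%) in WT cells and 9706 (56.7%) in truncation cells. Across the tested genes, which are not independent replicates, the effects in the 2 genotypes, measured in separate libraries, had a Pearson r of 0.774 and a Spearman rho of 0.779. Over genes, the SD of the log2 effect was 0.527 for WT and 0.622 for truncation cells. Among the 974 called genes, 620 had the same direction of effect in both genotypes and a larger size in truncation cells, 450 as deeper falls and 170 as larger rises. Another 83 had the same direction and a smaller size in truncation cells. The remaining 271 had effects of opposite sign, and in 70 of these both effects were themselves called. Both knockdown effects were called for 597 of the 974 genes, the one in truncation cells alone for 270 and the one in WT cells alone for 107.

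**Figure D1:**
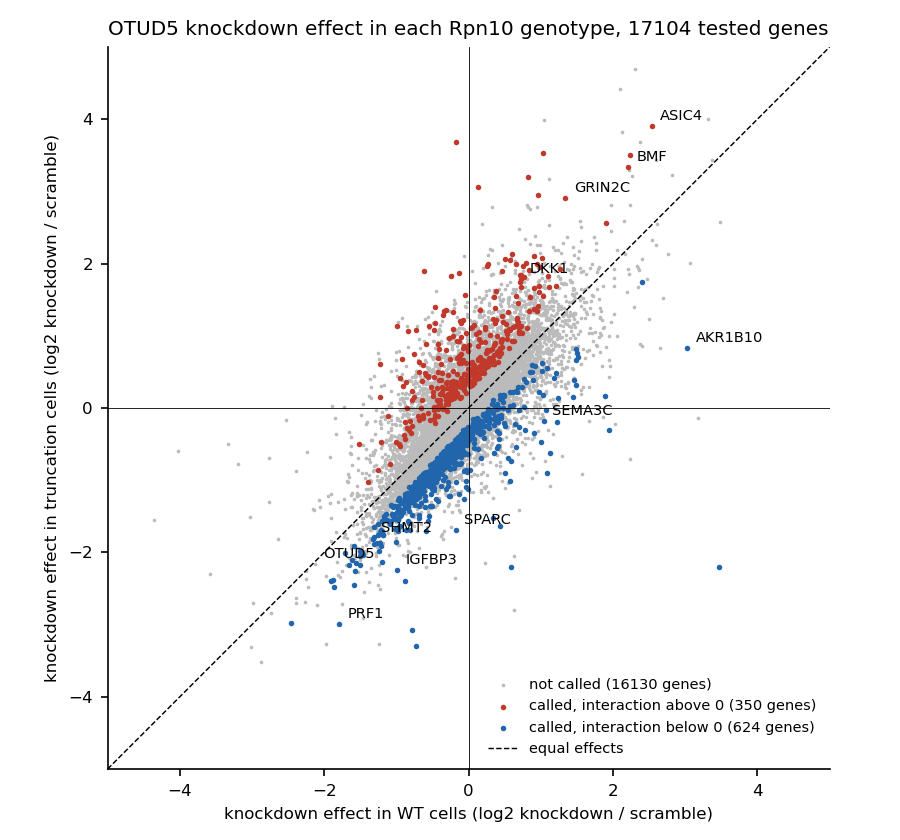
Log2 knockdown effect of each tested gene in WT cells (x axis) and truncation cells (y axis), as points, with the dashed line marking equal effects and 1 gene outside the axes. The 350 genes called above 0 lie above the line and the 624 called below 0 lie under it.

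Cell division genes had the highest share of calls among the 37 gene lists. They encode the cyclins, kinases, kinesins and kinetochore proteins that carry a cell through mitosis. All 36 tested members of the mitosis and kinetochore list had an interaction below 0, and 23 were called lower (63.9%, against 3.65% of all tested genes). The median interaction of the list was -0.32, beside -0.013 over all tested genes. Knockdown lowered 33 of the 36 in truncation cells and 12 in WT cells, where 3 rose, and the shares of all tested genes that fell were 28.1% and 25.1%. The summed level of the list fell from 5190 ± 125 CPM (SD, n = 4) to 4795 ± 225 in WT cells and from 4173 ± 108 to 3082 ± 87.8 in truncation cells. Fewer dividing cells and less of these RNAs per cell cannot be told apart in such bulk samples. The number called was 13 with upper-quartile scaling and 14 without WT scramble replicate 2. The counts of every list below stand against the same shares of all tested genes, 2.05% called higher and 3.65% lower for the interaction, and a list near these shares is not set apart by its count.

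By role, 5 of 6 cyclins and their partners, 6 of 7 kinesins, 4 of 8 kinases and 5 of 9 centromere genes were called. CCNA2 (ENSG00000145386, chromosome 4, 121816444 to 121823933), the cyclin of S phase and mitotic entry, stood at 137, 136, 144 and 140.01 CPM in WT scramble, 115, 134, 124 and 121 in WT knockdown, 112, 113, 105 and 105 in truncation scramble and 65.4, 65.8, 63.6 and 63.4 in truncation knockdown libraries. Its truncation knockdown libraries were the lowest of the 16. The knockdown effect was -0.17 in WT and -0.76 in truncation cells, an interaction of -0.58 ± 0.074 (adjusted p = 4.05e-05). CCNB1 (ENSG00000134057, chromosome 5, 69167010 to 69178245), the mitotic cyclin, had 275, 267, 278 and 299 CPM with scramble and 261, 280.1, 258 and 283 with knockdown in WT cells, values that overlapped, and 255, 256, 246 and 255 and then 165, 171, 169 and 155 in truncation cells, values that did not. Its interaction was -0.57 ± 0.072 (adjusted p = 3.94e-05). The kinesin of cytokinesis KIF20A, at -0.55 ± 0.077 (adjusted p = 0.000114), and the centromere protein CENPI, at -0.54 ± 0.12 (adjusted p = 0.00971), fell in both genotypes and more deeply in truncation cells. The kinase AURKA, which matures the spindle poles, had a knockdown effect of 0.29 in WT and -0.16 in truncation cells, both called, with an interaction of -0.45 ± 0.074.

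The promoters of these genes are shown because cell cycle promoters are known for a pair of short elements, the CHR and the CCAAT box, on which the DREAM and MuvB complexes and the factor NF-Y act. RefSeq sequence (GRCh38.p14) was at hand for 31 of the 36 genes, 19 of the 23 called ones and 11665 tested genes. In the 250 bases before the start, TTTGAA (the CHR spelling searched for) on either strand was found in 16 of the 31 mitosis promoters, 9 of the 19 called ones and 974 of the 11665 (8.35%). CCAAT on either strand was found in 24 of the 31, 15 of the 19 and 4077 of the 11665 (35%). For the S phase list the matches were 1 of 35 promoters for TTTGAA and 20 of 35 for CCAAT. A match here describes letters and is not a measured binding site. Other spellings of the CHR were not searched, so a promoter without TTTGAA is not shown to lack a CHR. The naming rule picked 4 mitosis genes, of which CENPI held neither motif in its 250 bases and is not printed. Below are the 110 bases before the start of the other 3 (CCNA2, CCNB1 and KIF20A, with no TTTGAA in these bases) and of 4 called genes chosen after their values were seen because they hold both motifs, 5′ to 3′ on the strand of the gene, with TTTGAA and CCAAT, or their complements TTCAAA and ATTGG, in capitals.
CCNA2, chr4:121823884-121823993, minus strand: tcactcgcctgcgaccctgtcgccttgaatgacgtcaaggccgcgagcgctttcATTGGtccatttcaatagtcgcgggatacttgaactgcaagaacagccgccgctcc
CCNB1, chr5:69167040-69167149, plus strand: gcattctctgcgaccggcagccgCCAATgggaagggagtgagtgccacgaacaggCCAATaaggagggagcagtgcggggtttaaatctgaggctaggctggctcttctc
KIF20A, chr5:138179002-138179111, plus strand: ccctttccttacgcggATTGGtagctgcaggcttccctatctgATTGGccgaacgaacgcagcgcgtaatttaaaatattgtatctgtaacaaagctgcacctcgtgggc
PLK1, chr16:23678779-23678888, plus strand: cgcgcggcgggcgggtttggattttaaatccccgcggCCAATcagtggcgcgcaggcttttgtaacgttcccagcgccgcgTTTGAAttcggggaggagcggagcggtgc
CCNB2, chr15:59105036-59105145, plus strand: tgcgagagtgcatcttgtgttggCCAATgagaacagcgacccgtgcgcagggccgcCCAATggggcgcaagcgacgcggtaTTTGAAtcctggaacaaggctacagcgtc
CDC20, chr1:43358871-43358980, plus strand: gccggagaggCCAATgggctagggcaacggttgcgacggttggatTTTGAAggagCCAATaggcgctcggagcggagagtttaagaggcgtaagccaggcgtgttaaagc
KIF23, chr15:69414239-69414348, plus strand: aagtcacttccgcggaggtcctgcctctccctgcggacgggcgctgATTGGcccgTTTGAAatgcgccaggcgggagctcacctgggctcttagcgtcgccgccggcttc
The interactions of the last 4 were -0.49 ± 0.073 for the mitotic kinase PLK1, -0.29 ± 0.082 for the cyclin CCNB2, -0.39 ± 0.073 for the activator of the anaphase-promoting complex CDC20 and -0.37 ± 0.076 for the kinesin KIF23. All 4 lie nearer to 0 than those of CCNA2, CCNB1 and KIF20A. The naming rule, which picked the largest interactions of the list, fixed this order in advance, so it says nothing about the motifs.

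Replication genes moved the same way with smaller counts. In the S phase and replication list 10 of 40 members were called lower (25%, against 3.65% of all tested genes) and none higher, with a median of -0.22. Knockdown lowered 31 of the 40 in truncation cells and 29 in WT cells, where 28.1% and 25.1% of all tested genes fell. The calls came from the replicative helicase (5 of 12), nucleotide supply (3 of 5), origin (1 of 4) and regulator (1 of 5) genes, and none of 14 polymerase and clamp loader genes was called. UHRF1 (ENSG00000276043, chromosome 19, 4903080 to 4962154), which guides maintenance DNA methylation, fell by -0.73 in WT and -1.24 in truncation cells on the log2 scale, with an interaction of -0.51 ± 0.089 (adjusted p = 0.00124). GINS1, a helicase subunit, stood at -0.48 ± 0.091 (adjusted p = 0.00241), MCM5 at -0.41 ± 0.078 and MCM2 at -0.41 ± 0.080. Each of these 4 kept its call in all 24 alternative fits. The list count was 16 with DESeq2 and 17 without WT knockdown replicate 3. The Fanconi gene FANCE, which helps repair crosslinked DNA, was the 1 called member of 25 repair genes (-0.48 ± 0.090, adjusted p = 0.00226).

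**Figure D2:**
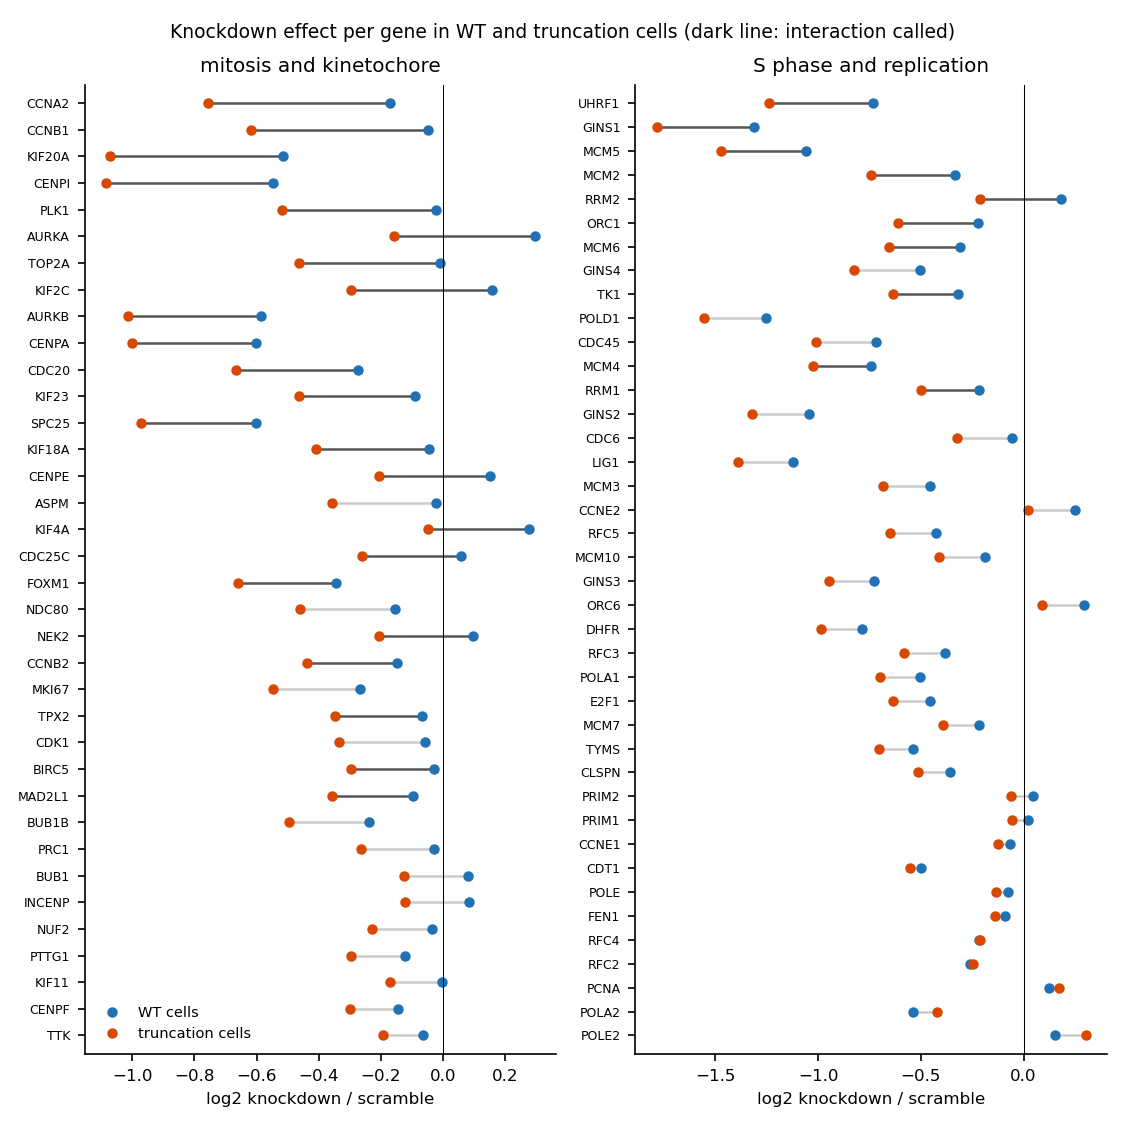
Log2 knockdown effect in WT cells (blue) and truncation cells (orange) for each tested mitosis gene (left, 36 genes) and S phase gene (right, 40 genes), joined by a dark line where the interaction was called. Every orange point of the left panel lies to the left of its blue partner, while 5 genes of the right panel have it to the right.

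More sterol genes rose than fell with knockdown in WT cells, and more fell than rose in truncation cells. Of the 26 tested genes of cholesterol synthesis and its control, 10 were called lower for the interaction and none higher, and 25 had a value below 0. The list's median knockdown effect was 0.15 in WT cells, where 13 rose and 5 fell, and -0.15 in truncation cells, where 6 rose and 12 fell. Of all tested genes, 25.2% rose and 25.1% fell in WT cells, and 28.7% and 28.1% in truncation cells. The summed level of the list was 2760 ± 46.1 CPM (SD, n = 4) with scramble and 3260 ± 74.7 with knockdown in WT cells, against 2249.8 ± 26.01 and 2171.1 ± 86.3 in truncation cells. ACAT2 (ENSG00000120437, chromosome 6, 159760328 to 159779055), which joins acetyl-CoA units at the start of the pathway, had 23.9, 24.4, 25.6 and 24.6 CPM with scramble and 26.9, 30.8, 25.98 and 30.3 with knockdown in WT cells. In truncation cells ACAT2 stood at 27.1, 26.8, 28.1 and 26.1 with scramble and 24.5, 22.6, 21.3 and 22.3 with knockdown. The siRNA groups did not overlap in either genotype. It rose in WT cells (0.21) and fell in truncation cells (-0.25), and the interaction of -0.46 ± 0.093 (adjusted p = 0.00394) kept its call in all 24 alternative fits. Its annotated span overlaps that of TCP1 on the other strand, whose interaction was -0.065 (adjusted p = 0.679), and with no strand setting known the reads of the pair cannot be told apart where they overlap. SQLE, the squalene epoxidase, stood at -0.39 ± 0.087 and DHCR7, which makes cholesterol in the last step, at -0.38 ± 0.091. INSIG1, which holds the sterol sensor in the endoplasmic reticulum, had -0.44 ± 0.13 and lost its call with upper-quartile scaling or with library size only or with limma-voom and when any of WT scramble replicates 1, 2 and 4, WT knockdown replicates 1, 3 and 4, truncation scramble replicates 2 and 3 and truncation knockdown replicates 2 and 4 was left out alone, with adjusted p of up to 0.0825. The list count was 5 with upper-quartile scaling and 6, 5 and 6 without WT scramble replicate 1, WT scramble replicate 2 and truncation knockdown replicate 4.

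Most fatty acid genes fell with knockdown in both genotypes. Of 12 tested members, 9 fell and none rose in WT cells, where 25.1% of all tested genes fell. In truncation cells, where 28.1% of all tested genes fell, 10 members fell and 1 rose. For the interaction 6 were called lower (50%, against 3.65% of all tested genes) and none higher, with a median of -0.26, and the 3 values above 0 reached 0.24 without a call. SCD (ENSG00000099194, chromosome 10, 100347124 to 100364834), the desaturase that makes oleate, stood at 2008, 2094, 2206 and 2006 CPM with scramble and 1639.9, 1019.7, 1718 and 1471 with knockdown in WT cells. In truncation cells SCD had 1017, 1024, 1065 and 1002 CPM with scramble and 367, 376, 519.8 and 341 with knockdown. The siRNA groups did not overlap in either genotype, and WT knockdown replicate 2 lay well under the other WT knockdown libraries. The interaction was -0.85 ± 0.16 (adjusted p = 0.00274). SREBF1, which encodes the factor that drives this pathway, had -0.68 ± 0.16 (adjusted p = 0.011), and FASN, the fatty acid synthase, -0.50 ± 0.11 (adjusted p = 0.00796). These 3 kept their calls in all 24 alternative fits, whereas the list count was 3 in 9 of the 16 fits with 1 library removed. On the linear CPM scale FASN and SREBF1 had the opposite order. SREBF1 changed by -206 CPM in WT and -195 CPM in truncation cells from unequal starting levels, and FASN by -1102 and -830.4 CPM. SCD kept its order but changed by similar amounts, -616 CPM in WT and -626 CPM in truncation cells.

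**Figure D3:**
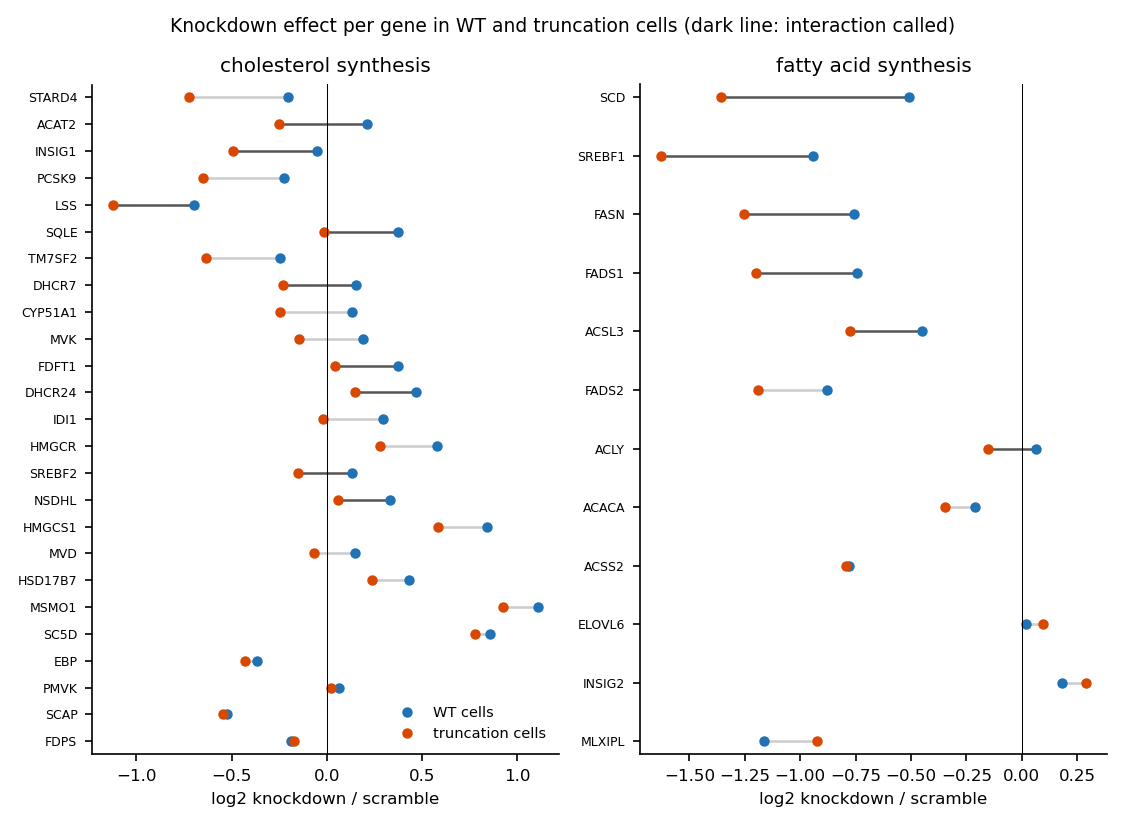
Log2 knockdown effect in WT cells (blue) and truncation cells (orange) for 25 tested cholesterol genes (left) and all 12 tested fatty acid genes (right), joined by a dark line where the interaction was called. Many blue points of the left panel lie above 0 with the orange partner near or under it, and the 4 uppermost genes of the right panel fell in both genotypes.

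More Wnt signalling genes were called lower than higher. Wnt ligands stabilise beta-catenin, which with TCF factors turns on targets that include the pathway's own inhibitors. Of 22 tested Wnt genes, 7 were called lower and 1 higher, and 6 of the 7 were among 12 targets. AXIN2 (ENSG00000168646, chromosome 17, 65528563 to 65561647), a feedback inhibitor and classic target, had 24.4, 22.5, 23.7 and 24.1 CPM with scramble and 20.4, 17.5, 18.2 and 20.3 with knockdown in WT cells. In truncation cells AXIN2 stood at 47.98, 45.2, 48.5 and 45.5 and then 20.5, 20.6, 23.2 and 21.3. Its truncation scramble libraries were the highest of the 16 and the other 12 lay close together. The effects were -0.31 and -1.13, an interaction of -0.82 ± 0.092 (adjusted p = 9.57e-06). NKD1, another feedback inhibitor, stood at -0.81 ± 0.14 (adjusted p = 0.00075). The signal carrier CTNNB1 had -0.39 ± 0.073, MYC -0.30 ± 0.069 and NOTUM, a secreted enzyme that inactivates Wnt, -0.50 ± 0.15. DKK1 (ENSG00000107984, chromosome 10, 52314296 to 52318042), a secreted antagonist of the Wnt co-receptor, went the other way, with 121, 113, 119.6 and 134 CPM with scramble and 189, 226, 197 and 194 with knockdown in WT cells and 35.2, 36.2, 32.7 and 35.2 and 126, 124, 114 and 116 in truncation cells. Knockdown raised it in both genotypes without overlap, by 0.73 and 1.79, and the interaction was 1.06 ± 0.089 (adjusted p = 1.12e-07). In CPM the rise of DKK1 was 79.7 in WT and 85.4 in truncation cells, from a lower scramble level in truncation cells. DKK4, the other tested antagonist, had at most 41 counts and was not called (-1.47 ± 1.37). AXIN2, NKD1 and DKK1 kept their calls in all 24 alternative fits.

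SPARC, IGFBP3, SEMA3C and SPP1 were among the 12 lowest interactions of the naming rule. SPARC (ENSG00000113140, chromosome 5, 151661096 to 151687165), a secreted glycoprotein of the matrix, stood at 2.51, 3.29, 2.87 and 4.18 CPM with scramble and 2.62, 2.93, 3.70 and 2.12 with knockdown in WT cells. In truncation cells the level was 225, 231, 228 and 229.7 with scramble and 63.1, 72.9, 77.5 and 69.3 with knockdown. The WT groups overlapped near the low end, and the truncation groups were far apart, with an interaction of -1.52 ± 0.17 (adjusted p = 1.12e-05) for a gene that stood far higher in truncation cells with either siRNA. IGFBP3 (ENSG00000146674, chromosome 7, 45912245 to 45921874), which binds insulin-like growth factors, had 3.49, 2.88, 2.60 and 2.75 and 1.57, 0.733, 2.00 and 1.60 CPM in WT scramble and knockdown libraries and 15.1, 17.8, 16.2 and 17.4 and 3.05, 3.36, 3.96 and 3.60 in the truncation ones. It fell in both genotypes, with an interaction of -1.26 ± 0.23 (adjusted p = 0.00201). SEMA3C (ENSG00000075223, chromosome 7, 80742538 to 80922359), a secreted semaphorin, had 22.9, 24.6, 26.6 and 24.5 CPM with scramble and 49.9, 56.9, 53.5 and 42.3 with knockdown in WT cells and 52.8, 50.9, 51.6 and 48.6 and 44.9, 45.2, 46.7 and 42.4 in truncation cells. It rose with knockdown in WT cells (1.04 ± 0.074) to a range that overlapped the truncation scramble libraries and fell slightly in truncation cells (-0.19 ± 0.071). Its interaction was -1.23 ± 0.10 (adjusted p = 1.12e-07).

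SPP1, which encodes osteopontin, rose from 1.12 to 2.36 CPM on average in WT cells and stood at 36.9 and 36.3 CPM in truncation cells (-1.10 ± 0.18, adjusted p = 0.000681). FN1, the matrix protein fibronectin, rose in WT cells (0.77) and had 0.008 in truncation cells (-0.76 ± 0.13, adjusted p = 0.00125). Among 24 tested TGF-beta and BMP genes 3 were called lower, with a median of -0.24 over the list. They were the matrix protein TGFBI (-1.72 ± 0.37, adjusted p = 0.00661), the cell cycle inhibitor CDKN2B (-0.74 ± 0.092, adjusted p = 3.94e-05) and the ligand BMP4 (-0.53 ± 0.088, adjusted p = 0.00075). TGFBI was listed at a mean of 0.360 CPM in WT scramble libraries and never passed a few CPM. CDKN2B had 9.15, 10.1, 9.83 and 9.50 CPM with scramble and 15.4, 16.5, 15.8 and 15.2 with knockdown in WT cells, and 34.7, 32.1, 31.4 and 29.8 and 32.5, 31.4, 30.05 and 31.3 in truncation cells, where the groups overlapped. The list count was 5, 6 and 5 without WT knockdown replicate 1, WT knockdown replicate 3 and truncation knockdown replicate 1. Of 29 tested mesenchymal and matrix genes, 2 were called lower (SPARC and FN1) and 1 higher, with a median of -0.13. The one called higher was the collagen gene COL1A1 (0.42 ± 0.12, adjusted p = 0.0461), which lost its call in 14 of the 24 alternative fits. All 16 libraries had COL1A1 between 31.7 and 55.4 CPM, while the fibroblast genes DCN and LUM had at most 7 and 5 counts.

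**Figure D4:**
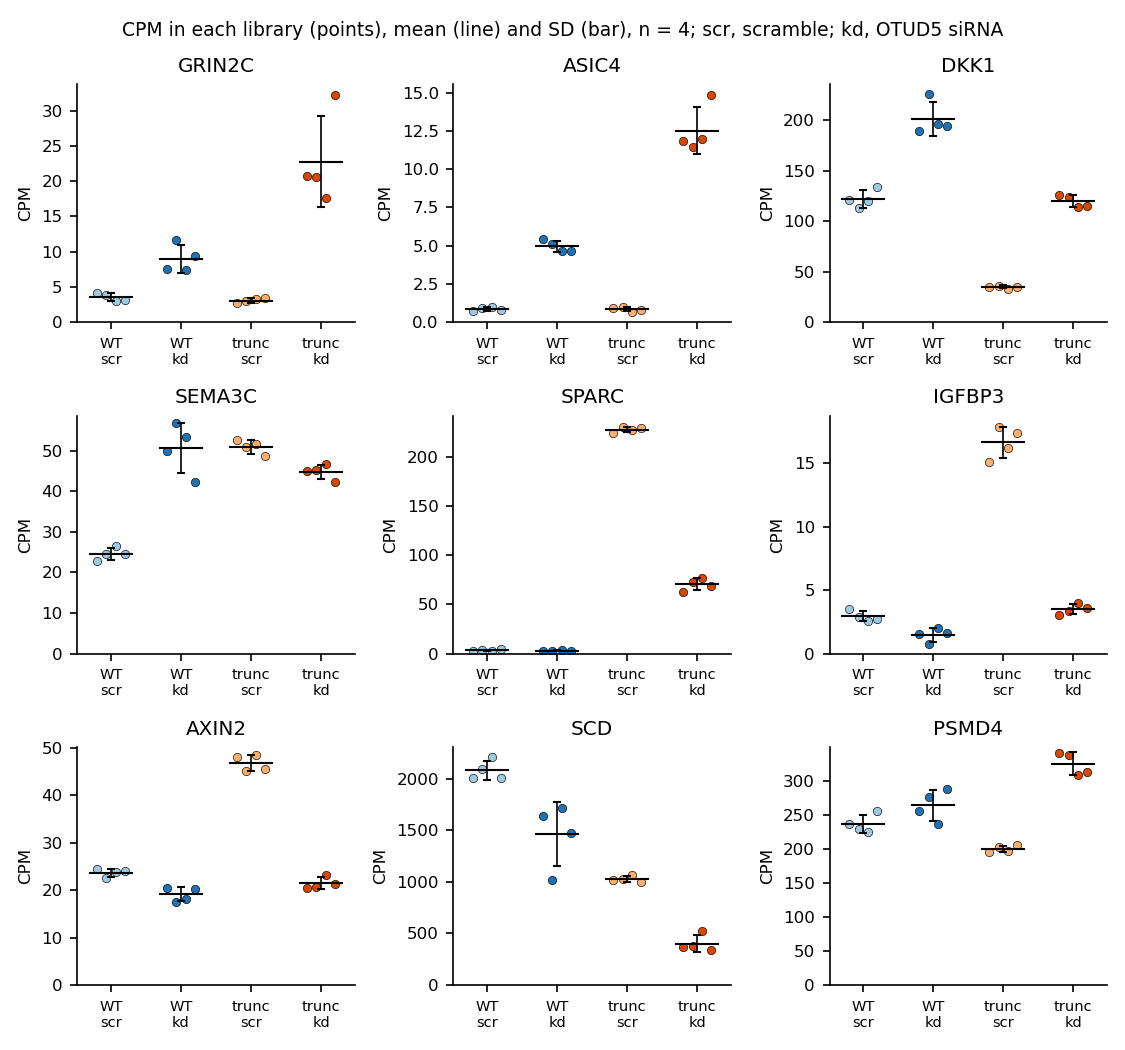
CPM of 9 genes in each library (points, 4 per group), with the group mean as a line and the SD as a bar, for WT scramble, WT knockdown, truncation scramble and truncation knockdown. GRIN2C, ASIC4 and PSMD4 rise most in the last group, SPARC, IGFBP3 and AXIN2 are highest in the third, and SEMA3C rises only in WT cells.

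The genes with the largest interactions above 0 were expressed at low levels. GRIN2C (ENSG00000161509, chromosome 17, 74842023 to 74861504), a subunit of NMDA-type glutamate receptors, stood at 4.15, 3.88, 2.94 and 3.14 CPM with scramble and 7.49, 11.6, 7.44 and 9.33 with knockdown in WT cells. In truncation cells the values were 2.63, 2.94, 3.23 and 3.35 and 20.7, 20.6, 17.6 and 32.2. Knockdown raised it without overlap in both genotypes, by 1.34 and 2.91, and truncation knockdown libraries were the highest of all. The interaction was 1.56 ± 0.25 (adjusted p = 0.000574). ASIC4 (ENSG00000072182, chromosome 2, 219514170 to 219538772), of the acid-sensing channel family, had 0.698, 0.901, 1.00 and 0.785 and 5.41, 5.09, 4.62 and 4.65 CPM in WT scramble and knockdown libraries and 0.899, 0.978, 0.674 and 0.786 and 11.8, 11.4, 11.99 and 14.8 in truncation ones. Its scramble levels overlapped between genotypes and its knockdown levels did not (1.36 ± 0.23, adjusted p = 0.000681). These were the 2 called members of 17 tested channel genes, of which 8 had a value above 0 and 9 below, with a median of -0.013. Knockdown raised 2 and lowered 9 of the 17 in truncation cells, and raised 3 and lowered 12 in WT cells. BMF (ENSG00000104081, chromosome 15, 40087890 to 40108892), a BH3-only protein that promotes apoptosis, followed the same course as GRIN2C and ASIC4. It had 1.26, 1.28, 1.21 and 1.29 and 5.89, 5.97, 5.26 and 6.17 CPM in WT cells and 0.588, 0.709, 0.741 and 0.615 and 6.53, 7.65, 6.47 and 6.39 in truncation cells, and an interaction of 1.13 ± 0.20 (adjusted p = 0.00102). BMF started lower and ended higher in truncation cells than in WT cells, with no overlap. TCAP, a titin-binding protein of muscle, had 1.27 ± 0.27 (adjusted p = 0.00539).

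Long non-coding RNAs made up 32 (40%) of the 80 genes called with an interaction at least 2-fold above 0. The share was 12.2% of all tested genes and 11.1% of the 36 called at least 2-fold below 0. The median level was 0.57 log2 CPM in the higher and 0.63 in the lower set. The median level over all tested genes was 3.98 log2 CPM. Among all 350 genes called higher, 16% were long non-coding, and among all 624 called lower, 97.4% were protein coding. LINC-PINT (ENSG00000231721, chromosome 7, 130938963 to 131110176), a p53-linked non-coding RNA, had -0.41 in WT cells and rose by 0.82 in truncation cells (1.23 ± 0.27, adjusted p = 0.00851). ANKRD10-IT1, an RNA from an intron of ANKRD10, fell in WT and rose in truncation cells (1.18 ± 0.20, adjusted p = 0.000975), and ANKRD10 itself was called at 0.46. MSLNL, a relative of mesothelin, also fell (-0.69) and rose (0.64), with an interaction of 1.33 ± 0.23 (adjusted p = 0.00105). Others of the leading 12 were ENSG00000260005, which overlaps TEPSIN, ENSG00000262691, which overlaps SLC9A5, ENSG00000285979, which overlaps FAM192A, ENSG00000272482 and YJEFN3, which overlaps NDUFA13, at 1.21 to 1.33. Since the strand setting of the counting is not given, reads of overlapping genes may have been split between them. SLC9A5 was called as well, at 0.91.

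Among the 12 lowest interactions, AKR1B10 (ENSG00000198074, chromosome 7, 134527592 to 134541408), an aldo-keto reductase of the NRF2 response, had 0.628, 0.520, 0.450 and 0.535 CPM with scramble and 3.44, 4.78, 4.41 and 4.89 with knockdown in WT cells. In truncation cells AKR1B10 stood at 6.54, 6.82, 7.31 and 8.20 and 14.1, 12.9, 13.1 and 11.4. It rose in both genotypes without overlap, by 3.03 and 0.83, so its interaction was -2.19 ± 0.21 (adjusted p = 4.93e-07), while in CPM the rise was larger in truncation cells (5.65) than in WT cells (3.85). Such a reversal on the linear scale was seen for 38 of the 974 called genes (3.90%), 36 of them lower on the log2 scale. AKR1B10 belongs to a family of similar genes, and how reads shared among them were counted was not tested. PRF1 (ENSG00000180644, chromosome 10, 70597348 to 70602775), the pore-forming protein of cytotoxic lymphocytes, fell from 29.7 to 8.58 CPM in WT and from 26.9 to 3.36 CPM in truncation cells (-1.21 ± 0.22, adjusted p = 0.00204). The host gene MIR1915HG fell by -1.26 in truncation cells and had -0.063 in WT cells (-1.20 ± 0.13, adjusted p = 3.25e-06). DDIT4L, an inhibitor of mTOR signalling, fell in both (-1.11 ± 0.28, adjusted p = 0.017). CAPS, a calcium-binding protein, rose in WT and fell in truncation cells (-1.31 ± 0.26, adjusted p = 0.00299), as did MYBPH, a myosin-binding protein, at -1.20 ± 0.31, which lost its call when any of WT scramble replicate 2 and WT knockdown replicate 4 was left out alone, with adjusted p of up to 0.0642. DNAI3, a ciliary dynein chain that overlaps MCOLN3, and RAB7B, a small GTPase of endosomes, were called as rising in WT cells and not in truncation cells, with interactions of -1.17 ± 0.22 and -1.10 ± 0.23.

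Of all tested genes, 25.2% rose with knockdown in WT cells and 28.7% in truncation cells. Targets of p53 rose in both genotypes, 23 of 27 tested genes in each. Their median interaction was -0.04, and 4 were called lower and none higher. MDM2 (ENSG00000135679, chromosome 12, 68808176 to 68850686), the ubiquitin ligase that restrains p53, had 105, 111, 125 and 103 CPM with scramble and 143, 161, 161 and 131 with knockdown in WT cells and 142, 138, 142 and 131 and 122, 119, 129 and 134 in truncation cells. It rose in WT cells (0.43) and had -0.13 in truncation cells, where the groups overlapped, with an interaction of -0.56 ± 0.10 (adjusted p = 0.00103). TP53I3, an oxidoreductase induced by p53, had -0.40 ± 0.10 (adjusted p = 0.0179). BTG2, which slows proliferation, had -0.28 ± 0.075 and lost its call with upper-quartile scaling, with adjusted p of up to 0.0713. The BH3-only gene BBC3 had -0.34 ± 0.10 and lost its call with upper-quartile scaling or with library size only and when any of WT scramble replicates 2 and 3, WT knockdown replicates 1 and 4, truncation scramble replicates 2, 3 and 4 and truncation knockdown replicate 3 was left out alone, with adjusted p of up to 0.109. With upper-quartile scaling 2 of the list were called.

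Stress pathways divided between higher and lower calls. ATF4 drives amino acid supply and, with CHOP, feedback genes when translation is restrained. For 6 of 28 tested ATF4 response genes the call was higher (2.05% over all tested genes) and for 1 it was lower (3.65%), and the list's median was 0.23. Knockdown raised 18 in truncation cells and 10 in WT cells, where 28.7% and 25.2% of all tested genes rose. PHGDH (ENSG00000092621, chromosome 1, 119648411 to 119744226), the entry enzyme of serine synthesis, had 149.7, 156, 146 and 152 CPM with scramble and 151, 139, 136 and 157 with knockdown in WT cells and 111, 114, 109 and 116 and 148, 152, 144 and 134 in truncation cells. The WT groups overlapped and the truncation groups did not (0.41 ± 0.076, adjusted p = 0.00208). CHAC1, which degrades glutathione, had 0.63 ± 0.17 and lost its call when any of WT scramble replicate 1, WT knockdown replicate 1, truncation scramble replicates 1 and 3 and truncation knockdown replicates 1 and 2 was left out alone, with adjusted p of up to 0.0602. STC2, a secreted glycoprotein, had 0.38 ± 0.10 and lost its call when any of WT scramble replicate 1, WT knockdown replicates 1 and 3, truncation scramble replicates 1, 2, 3 and 4 and truncation knockdown replicates 2 and 4 was left out alone, with adjusted p of up to 0.0919. SHMT2, the mitochondrial serine hydroxymethyltransferase, was the 1 called lower, at -0.48 ± 0.10 (adjusted p = 0.0051), and fell in both genotypes. In CPM the order of SHMT2 was the opposite, with a change of -180 in WT and -152 in truncation cells. The number called higher ranged from 2 to 11 over the alternative fits, with 2 or 3 in 8 of the 16 fits with 1 library removed and 11 without WT knockdown replicate 2.

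In the endoplasmic reticulum, 2 of 25 unfolded protein response and degradation genes were called higher and 3 lower. The ligase SYVN1, which tags misfolded proteins for export to the proteasome, had 0.43 ± 0.086 (adjusted p = 0.00398), and the chaperone HYOU1 -0.50 ± 0.077 (adjusted p = 0.000347), both with their calls kept in all 24 alternative fits. EDEM1, which marks glycoproteins for degradation, had 0.36 ± 0.11, and lost its call in 18 of the 24. The kinase EIF2AK3 had -0.44 ± 0.12 and lost its call with upper-quartile scaling and when any of WT scramble replicates 2 and 4, WT knockdown replicate 4 and truncation scramble replicate 2 was left out alone, with adjusted p of up to 0.0693. Among 24 cytosolic heat shock genes 3 were called lower, HSPA8 (-0.39 ± 0.11), FKBP4 (-0.28 ± 0.077) and DNAJB1 (-0.28 ± 0.081), and none was with upper-quartile scaling, without WT scramble replicate 2 or without truncation knockdown replicate 4. Of 30 NRF2 targets 5 were called lower and 1 higher. HMOX1, which breaks down haem, rose from 30.6 to 161 CPM in WT and from 38.7 to 130.4 CPM in truncation cells (-0.65 ± 0.16, adjusted p = 0.015). The exporter ABCC2 had 0.13 in WT cells and fell by -0.56 in truncation cells (-0.69 ± 0.092, adjusted p = 6.80e-05). The NRF2 count of lower calls was 8 without WT knockdown replicate 2.

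Of all tested genes, 25.2% rose and 25.1% fell with knockdown in WT cells, and 28.7% and 28.1% in truncation cells. Of 32 hypoxia and glycolysis genes, 9 rose and 7 fell in WT cells, near these shares, with a median effect of 0.12. In truncation cells 3 of them rose and 12 fell, with a median of -0.13. For the interaction 5 were called lower (15.6%, against 3.65% of all tested genes) and none higher, with a median of -0.17, and 16 were lower without WT knockdown replicate 2. SLC2A1 (ENSG00000117394, chromosome 1, 42925375 to 42959176), the glucose transporter GLUT1, had 450.1, 383, 417 and 446 CPM with scramble and 314, 213, 297 and 289.8 with knockdown in WT cells and 766, 789, 781 and 773 and 258, 306, 334 and 300.3 in truncation cells. Both genotypes separated by siRNA, and the truncation knockdown libraries reached the range of the WT knockdown ones from a higher start (-0.77 ± 0.12, adjusted p = 0.000489). HK2, a hexokinase, had -0.80 ± 0.20 (adjusted p = 0.0167) and PFKL, a phosphofructokinase, -0.61 ± 0.15 (adjusted p = 0.0171).

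Of 33 tested subunits of the 26S particle, 2 were called higher and none lower, with a median of 0.04. That share of 6.06% is near the 5.69% called among all tested genes. None of the 7 beta subunits, 6 base ATPases or 9 lid subunits was called. The other called subunit, PSMA2, stood under 8 CPM in every library, overlaps MRPL32 and lost its call in 10 of the 24 alternative fits. None of 16 assembly and control genes was called, and 1 of 25 genes that deliver or extract ubiquitylated proteins was, the shuttle UBQLN2 (-0.31 ± 0.079, adjusted p = 0.0184). Among 15 OTU family deubiquitinases, OTUD3 had 0.38 ± 0.093 (adjusted p = 0.016). Of 18 HECT and UBR ligases only HECTD3 was called, at -0.36 ± 0.11, and it lost its call in 13 of the 24 alternative fits.

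Signalling and identity genes gave calls in both directions. DUSP5 (ENSG00000138166, chromosome 10, 110497838 to 110511544), a phosphatase of nuclear ERK, had 148, 149, 140.1 and 144 CPM with scramble and 111, 142, 99.5 and 125 with knockdown in WT cells and 132, 137, 128 and 137 and 184, 199, 162 and 189 in truncation cells. By the tests it fell in WT cells, where the groups overlapped, and rose in truncation cells, where they did not (0.74 ± 0.11, adjusted p = 0.000217). The immediate early factors JUN (-0.52 ± 0.12) and EGR1 (-0.45 ± 0.10) rose in WT cells and had a lower response in truncation cells. The EGF receptor ligands EREG (-0.41 ± 0.091) and AREG (-0.32 ± 0.071) were called lower, and the receptor ERBB3 higher (0.45 ± 0.11), a call it lost without truncation scramble replicate 3. The Hippo effector YAP1 was lower (-0.46 ± 0.075, adjusted p = 0.000578). It was the 1 lower call among 16 tested genes of the YAP and TEAD list, where 1 other gene was called higher and the median was -0.065. Of 22 tested Notch genes 1 was called higher and 2 lower. The modifier LFNG fell in both genotypes and more in truncation cells on the log2 scale (-0.87 ± 0.20, adjusted p = 0.00899). In CPM it changed by -12.05 in WT and -12.06 in truncation cells. The target HES4 was lower on the log2 scale (-0.53 ± 0.15), while in CPM it changed by -29.2 in WT and -28.5 in truncation cells. MFNG, a modifier of the same family as LFNG, was called higher (1.22 ± 0.35, adjusted p = 0.0371) and lost its call in 10 of the 24 alternative fits. CXCL8, a chemokine, was the 1 called of 20 NF-kB genes (-0.82 ± 0.20, adjusted p = 0.0148).

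Of the identity lists, 39 epithelial genes had 2 called higher and 4 lower, with 11 lower without WT knockdown replicate 2. The junction protein PKP3 stood at -0.49 ± 0.11 (adjusted p = 0.0103). The related factors KLF4 (0.46 ± 0.11) and KLF5 (0.39 ± 0.090) were called higher and KLF13 (-0.46 ± 0.11) lower. Within the HOX clusters HOXB5 was higher (0.60 ± 0.13), while HOXA3 (-0.56 ± 0.12) and HOXB4 (-0.39 ± 0.086) were lower, and HOXB5 and HOXA3 each moved in opposite directions in the 2 genotypes. Of 13 Polycomb genes, EZH1 (0.52 ± 0.10) and JARID2 (0.40 ± 0.082) were called higher, while the median of the 13 was -0.071 and 21 of the 27 SWI/SNF and Polycomb genes had a value below 0. Of 29 interferon-stimulated genes 2 were called (6.9%, near the 5.69% of all tested genes), both lower, the RNA sensor RIGI (-0.41 ± 0.11) and OAS3 (-0.34 ± 0.10), of which RIGI lost its call without WT scramble replicate 1 and OAS3 in 9 of the 24 alternative fits.

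No call was made among 56 ribosomal protein genes, whose interactions spanned -0.18 to 0.12 with a median of 0.005. The 13 mitochondrially encoded genes were not called either, but all 13 had a value above 0, with a median of 0.45. The absence of calls was not stable, since 11 were called higher with no low count filter, 5 without WT knockdown replicate 2, 2 without truncation scramble replicate 4, 1 without WT scramble replicate 3 and 1 without WT knockdown replicates 2 and 3. MT-ND4, a subunit of complex I, had -0.38 in WT and 0.17 in truncation cells, and its interaction of 0.55 ± 0.20 had an adjusted p of 0.0975 and was called in 4 of the 24 alternative fits. MT-CO1, of complex IV, stood at 0.39 ± 0.17 (adjusted p = 0.187) and was called in 1 of them. Their share of counts ranged from 3.76 to 5.41% over the WT scramble libraries and 3.39 to 5.07% after knockdown, and for truncation cells from 2.87 to 4.33% (scramble) and 3.36 to 4.69% (knockdown), so the ranges overlap.

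**Figure D5:**
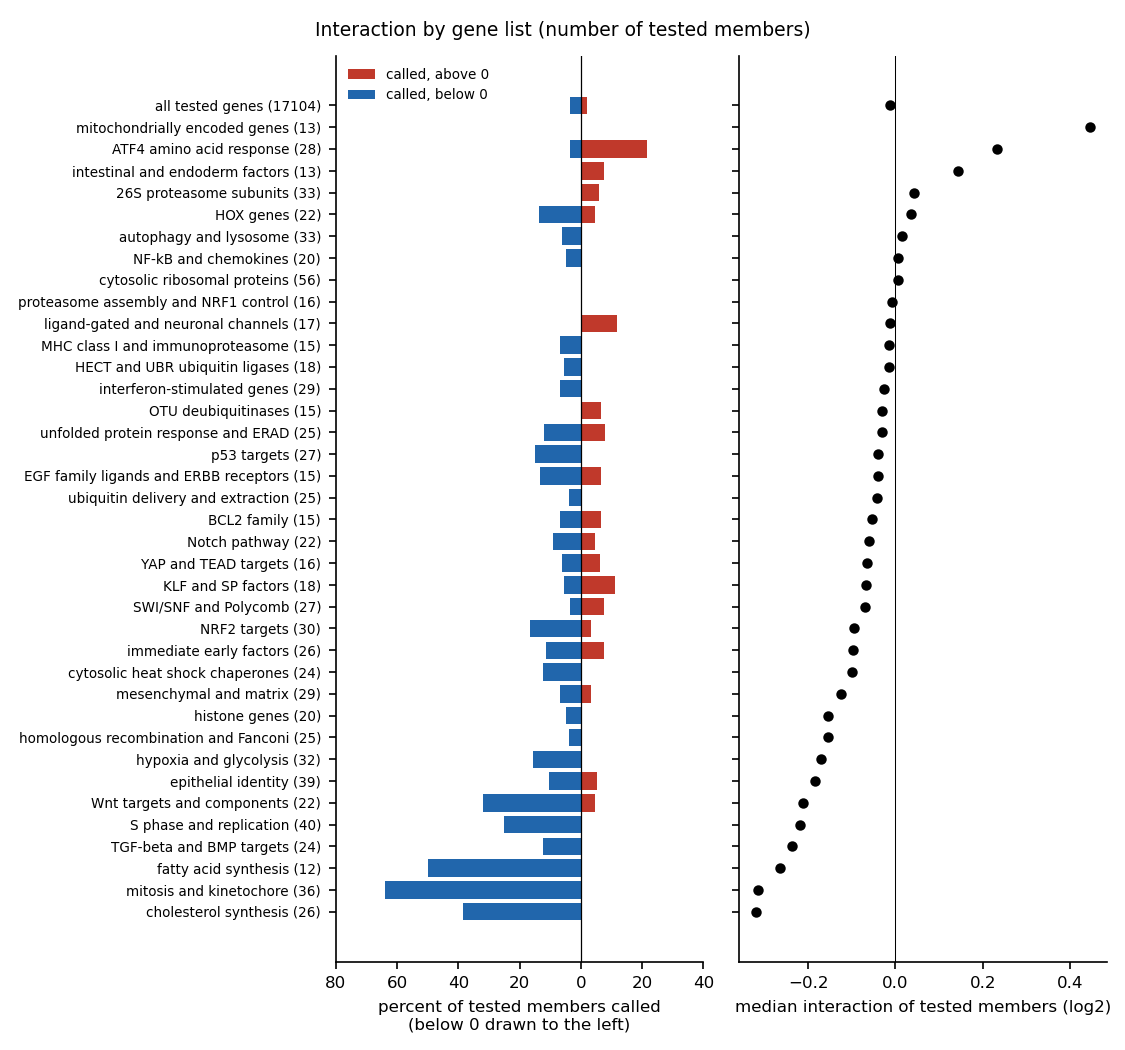
Share of tested members called above 0 (red) or below 0 (blue, drawn to the left) in each of the 37 gene lists and in all tested genes (left), and the median interaction of each list (right). Mitosis (63.9%), fatty acid (50%) and cholesterol (38.5%) genes had the highest shares called, all of them below 0, and the mitochondrially encoded genes had the highest median with no call.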

How the data were processed

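Column-purified RNA of 16 samples was sequenced by a commercial provider from Nextera-XT-type libraries, as the protocols in the labels state. The authors deposited raw counts per Ensembl gene, which were used as deposited, and all of whose rows name a gene. Per the submitters' processing notes, STAR 2.7.3a, DESeq2, edgeR and limma were used with hg38. Which program counted reads, on which annotation and strand, is not given in the sources used here. Neither the authors' filtered table nor their scaled one was used.

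Libraries were grouped by library name and treatment label. In 4 libraries, those of truncation knockdown, the title says scramble. The titles number the libraries of each group as biological replicates without saying what was replicated, so the p-values reflect how these samples vary. No replicate pair agreed within sampling noise (chi-square per degree of freedom 2.75 to 20.8).

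Genes passing edgeR's filterByExpr entered a fit in edgeR 4.0.16 with TMM scaling (R 4.3.3, quasi-likelihood, 1 coefficient per group over all 16 libraries, 12 residual degrees of freedom, common biological coefficient of variation 7.25%). The interaction was tested two-sided, p-values were adjusted by Benjamini-Hochberg over all 17104 genes in the fit, and the threshold for a call was 0.05. SE is the log2 value divided by the square root of F. The median SE was 0.13, and the smallest interaction called was 0.22. The procedure was tested on simulated data, where 11 of 170 calls were false. Simulated log2 interactions of size 0.5, 1, 1.5 and 2 were called with the right sign in 61.2%, 90%, 91.8% and 79.6% of genes. Alternatives were other scalings, DESeq2 1.42.0, limma-voom (limma 3.58.1), other filters, each library left out and a replicate block.

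The comparison, the 37 gene lists and the cell type markers were chosen with earlier results of these data known. Named genes were the 12 highest and 12 lowest called interactions at a mean log2 CPM of at least 1, up to 4 called members with the largest interactions in each list with a call, OTUD5, PSMD4 and 2 mitochondrial genes, of which 2 are not reported here. Other genes named were chosen after their values were seen. Coordinates are 1-based gene spans on GRCh38 from GENCODE, whose release may differ from that used for counting. Symbols matched 17046 tested genes. Replicate numbers recur in all groups. Same-numbered libraries of different groups had correlations of their deviations from -0.084 to 0.16 (4 of 24 above 0.1). Differently numbered ones ranged from -0.19 to 0.15 (2 of 72 above 0.1). Whether the numbers pair libraries is not known from these values, and the main fit did not pair them.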

Additional observations from a re-analysis of the deposited data

Results flagged for a closer look

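Of 452 groups of 4 libraries (113 named genes in 4 groups), 23 had 1 library farther from the other 3 than Dixon's 95% limit allows, where chance gives about 1 in 20. Of these, 7 were in WT knockdown replicate 2. WT scramble replicate 3 stood above the others for ANKRD10-IT1 (6.06 CPM against 4.71 to 4.93) and below the others for BBC3 (27.2 CPM against 32.1 to 32.99). Truncation knockdown replicate 4 stood above the others for ASIC4 (14.8 CPM against 11.4 to 11.99) and above the others for NKD1 (17.4 CPM against 14.3 to 14.7). Truncation knockdown replicate 2 stood above the others for BMF (7.65 CPM against 6.39 to 6.53) and above the others for BMP4 (322 CPM against 298 to 301). WT knockdown replicate 1 stood below the others for CAPS (1.02 CPM against 1.18 to 1.19) and above the others for DUSP6 (73.6 CPM against 67.1 to 67.6). Truncation scramble replicate 3 stood below the others for CCNB1 (246 CPM against 255 to 256). Truncation scramble replicate 2 stood above the others for CHAC1 (10.3 CPM against 9.27 to 9.29). WT knockdown replicate 2 stood below the others for COL1A1 (32.1 CPM against 43.03 to 44.2), below the others for ERBB3 (18.04 CPM against 22.4 to 22.9), below the others for FASN (1271 CPM against 1666 to 1738), above the others for OTUD3 (46.5 CPM against 43.04 to 43.5), below the others for P4HA2 (54.98 CPM against 67.9 to 68.7), above the others for SMARCD1 (111 CPM against 101 to 102) and below the others for SREBF1 (146 CPM against 238 to 255). Truncation knockdown replicate 3 stood below the others for HOXB4 (21.4 CPM against 21.97 to 22.1) and above the others for SHMT2 (69.9 CPM against 56.4 to 58.7). Truncation scramble replicate 4 stood above the others for HOXB5 (15.1 CPM against 10.999 to 11.3) and above the others for NEU1 (34.5 CPM against 33.55 to 33.64). Truncation knockdown replicate 1 stood below the others for MCM5 (124 CPM against 127.8 to 128.4). WT scramble replicate 4 stood below the others for PSMA2 (1.999 CPM against 2.74 to 2.87). 

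The knockdown effect differed between genotypes for 974 genes by the interaction test itself. Of the genes picked by the naming rule and reported here, 12 had a called interaction and both effects called with opposite signs. The called interaction was a condition of this count and not a further result. Genes named outside that rule are not counted here. Those that rose in truncation cells and fell in WT cells were MSLNL (1.33), ENSG00000285979 (1.22), ANKRD10-IT1 (1.18), DUSP5 (0.74), EZH1 (0.52) and HOXB5 (0.60). Those that fell in truncation cells and rose in WT cells were CAPS (-1.31), SEMA3C (-1.23), MYBPH (-1.20), ACAT2 (-0.46), BMP4 (-0.53) and HOXA3 (-0.56). Each value is the log2 interaction from edgeR's fit.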

How the results depend on the processing

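Over 24 alternative fits, 21 gave a count of called genes within 1.5 times the 974 reported. DESeq2 called 1470 (1042 lower, 975 larger and 139 smaller in truncation cells), and leaving out WT knockdown replicates 2 and 3 together 1642 (1284 lower, 1155 larger in truncation cells). Upper-quartile scaling gave 397 lower calls. With each library left out in turn, the calls ranged from 653 (without WT scramble replicate 2) to 1661 (without WT knockdown replicate 2), those higher from 205 to 533, those lower from 426 to 1128 and those of at least 2-fold from 72 to 173. In the same fits the genes with a larger effect in truncation cells ranged from 413 to 1120, those with a smaller one from 51 to 125 and those with opposite signs from 183 to 416. The cause of these shifts was not tested. The replicate number as a block gave 1150 calls (390 higher, 760 lower), 950 of them shared with the 974, and 6 of 16 libraries correlated best with a library of their own number. OTUD5, never called, turned to 0.024 with upper-quartile scaling and ranged from -0.092 to 0.017 with each library left out. Counting each named gene in each alternative fit, 2407 results kept the side of the threshold, 298 lost a call, 5 gained one and 2 changed sign. The counts called for knockdown within each genotype stayed within 1.5 times in all 25 alternatives, which include fitting each genotype on its own libraries. The 2-fold calls sat at median levels of 0.57 (higher) and 0.63 (lower) log2 CPM, against 3.98 over all tested genes, and the part of depth in them was not tested.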

Other observations

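The 70 genes whose knockdown effects were called in opposite directions held regulators outside the lists, named here after their values were seen. SOX4, a transcription factor of progenitor cells, stood at 148 ± 3.06 CPM (SD, n = 4) with scramble and 194 ± 28.7 with knockdown in WT cells, and at 179 ± 10.1 and 122 ± 12.5 in truncation cells, with an interaction of -0.94 ± 0.11. MSX2, a homeobox factor, rose in WT cells (0.70 ± 0.067) and fell in truncation cells (-0.27 ± 0.062). The adhesion gene DSC2, of the desmosome, went the same way (0.49 ± 0.066 and -0.21 ± 0.066). The clock genes NR1D1 and NPAS2 fell in WT cells and rose in truncation cells, with interactions of 0.66 ± 0.082 and 0.46 ± 0.11. AMH, which encodes anti-Müllerian hormone, did so too, at 28.1 and 20.8 CPM on average in WT cells and 16.1 and 26.1 CPM in truncation cells.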
